A study of Mus musculus with 12 samples.

Results

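The comparison described here sets uteri of pregnant mice that overexpressed the progesterone receptor isoform PGR-B against uteri that overexpressed the isoform PGR-A, by RNA sequencing of the tissue at 13.5 days post coitum. It compares 8 of the 12 libraries of the study, 4 per isoform, chosen by their labelled genotype, over all 24964 genes of the deposited count table. The PGR-A OE libraries (labelled PGR-A:OE) carried the genotype Myh11Cre; LSLPGRA/+ and the PGR-B OE libraries (labelled PGR-B:OE) the genotype Myh11Cre; LSLPGRB/+. The 4 remaining libraries, of genotype Myh11Cre with no PGR allele named, served as control to say on which side of control each isoform group lay. They also entered the fitted model that compared the isoforms, where they took part in the gene filter, the scaling and the estimate of the spread. All 12 libraries therefore shared the Myh11Cre allele, a Cre driver of smooth muscle, which is present in blood vessels as well as in the myometrium. Each isoform allele was present in 1 copy, beside the endogenous Pgr gene. The tissue was bulk uterine tissue, so fewer cells of a type and less RNA per cell cannot be told apart in any value below. The labels do not say that replicates came from separate animals, so the p-values measure the spread between these libraries, part of which may be technical. Neither the strain, nor the number of animals per library, nor the insertion site of the isoform alleles is given in the sources used here.

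Progesterone keeps the pregnant uterus quiescent through the progesterone receptor, a ligand-activated transcription factor encoded by Pgr. PGR-A and PGR-B are made from the same gene from different start sites, and PGR-B carries an additional stretch at its amino end that holds a further activation function. Both bind the same response elements in DNA, and each is known to act on its own set of genes as well as on shared ones. In the myometrium, oxytocin and related agonists raise calcium through Gq-coupled receptors and phospholipase C, which makes the muscle contract. The series title places the phospholipase C pathway and contractility at the centre of the study.

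The 8 libraries held 32019087 to 33078483 counts each. PGR-A OE replicate 4 stood apart from the other 7: it lay at 45.0 on the leading principal component of the 8 libraries (33.8% of the variance), against -13.7 to 4.21 for the others, and results that rest on it are given with and without it. The total Pgr count, which cannot separate the isoforms, was 166, 185, 194 and 255 CPM (reads relative to the TMM-scaled library total) in the PGR-A OE libraries and 248, 218, 237 and 188 CPM in the PGR-B OE libraries. The 2 groups overlapped, and the difference in mean log2(CPM + 1) was 0.17 (exact two-sided permutation test over 70 splits, p = 0.371, smallest possible p 0.0286). Without PGR-A OE replicate 4, the highest of its group, it was 0.29 (exact two-sided permutation test over 35 splits, p = 0.0857). Both groups lay above the control libraries, which held 142, 126, 110.5 and 106 CPM. Whether the table's Pgr count takes in reads from the LSLPGRA and LSLPGRB alleles is not given in the sources used here. Among the controls, replicate 4 differed from the others in marker sums. Its decidual markers summed to 12832 CPM (3158 to 4347 in the other controls) and its trophoblast markers to 122.9 CPM (3.03 to 13.1). It is part of every control value below.

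Between the isoforms, 18 of 15561 genes tested passed edgeR's quasi-likelihood test at a Benjamini-Hochberg adjusted p under 0.05 (0.116%). Of these, 9 were higher in PGR-B OE (0.0578%) and 9 were lower in PGR-B OE (0.0578%). The higher genes were Ptn, Npy, Shisa6, Egfem1, Dupd1, L3mbtl4, Mum1l1, Aldh1a7 and Aldh1a1. The lower genes were Serpina1a, Serpina1b, Serpina1c, Aldh1b1, Adarb1, Nipal4, Nrp2, Pgbd5 and Slc1a2. For each of the 18 the values of the 4 PGR-B OE libraries did not overlap those of the 4 PGR-A OE libraries, as held for 599 of all genes tested (3.85%; 1.5% higher and 2.35% lower in PGR-B OE), and 15 of the 18 differed at least 2-fold (0.0964% of genes tested). DESeq2 and limma voom each called all 18 of these genes, within totals of 126 genes for DESeq2 (0.81%; 0.283% higher and 0.527% lower) and 21 for limma voom (0.135%; 0.0707% higher and 0.0643% lower). When each of the 12 libraries was left out in turn, 9 of the 18 passed in every fit: Ptn, Shisa6, L3mbtl4, Mum1l1, Aldh1a7, Serpina1a, Serpina1b, Serpina1c and Aldh1b1. The other 9 were lost in between 2 and 11 of those 12 fits, as given with each gene. Those 9 (Npy, Egfem1, Dupd1, Aldh1a1, Adarb1, Nipal4, Nrp2, Pgbd5 and Slc1a2) were also lost when the 8 isoform libraries were fitted alone, and all of them but Egfem1 with the replicate number as a block. Requiring a mean of 1 CPM lost Aldh1a1, Adarb1, Nipal4, Nrp2 and Pgbd5 among the genes that were still tested.

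**Figure D1:**
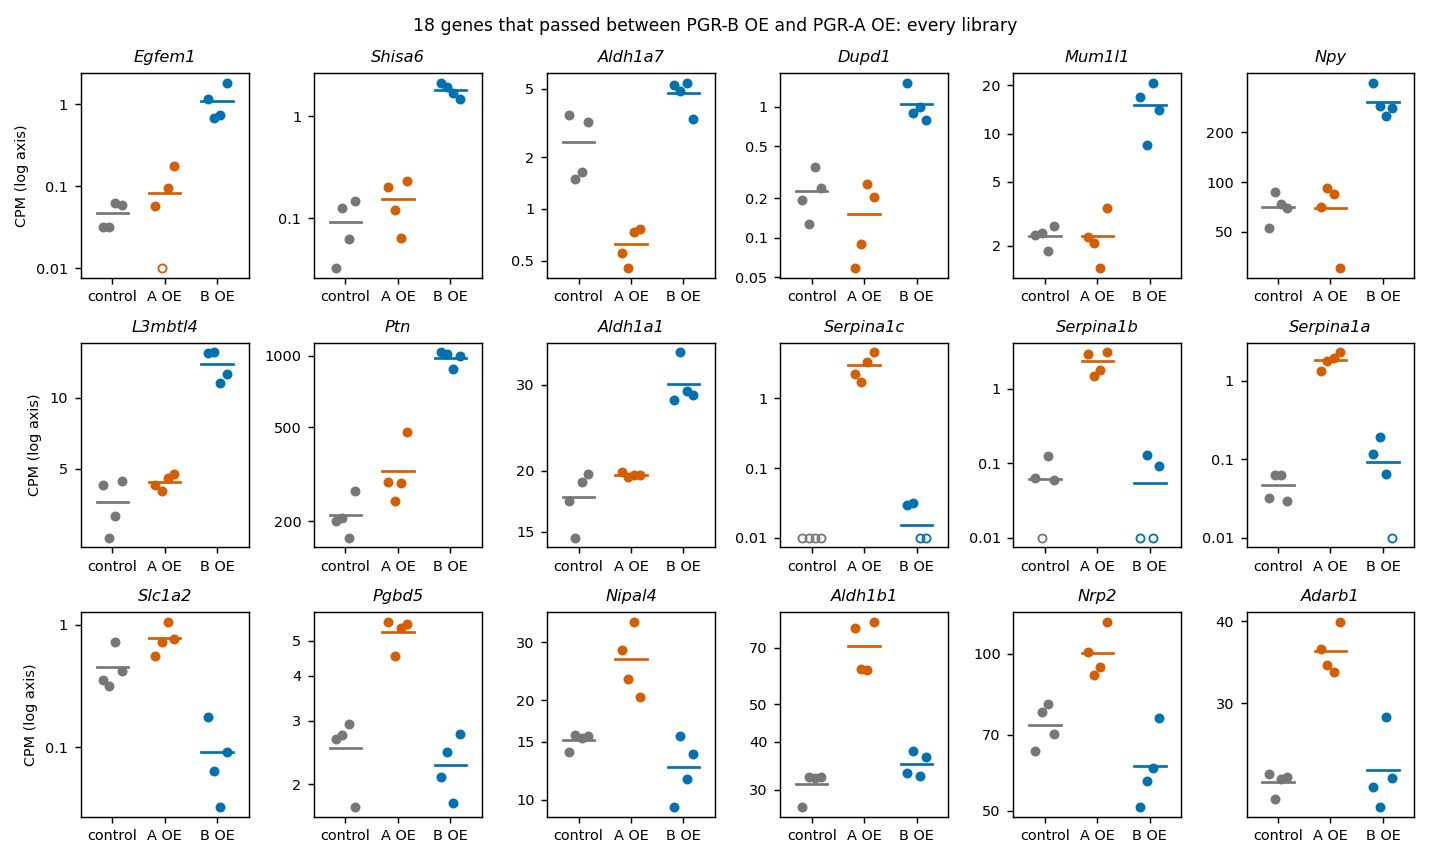
Level of the 18 genes that passed between PGR-B OE and PGR-A OE, in CPM on a log axis, with 1 point per library and a line at the mean of each group of 4; open points mark a count of 0, drawn at 0.01 CPM. In each panel the 4 PGR-B OE points lie wholly above or wholly below the 4 PGR-A OE points, as for Ptn, where PGR-B OE spans 879 to 1037 CPM and PGR-A OE 243 to 477 CPM.

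The gene of highest level among those higher in PGR-B OE was Ptn (chr6:36714929-36810220, GRCm38), which encodes pleiotrophin, a secreted heparin-binding growth factor. Its level was 1037, 1021, 879 and 995 CPM in the PGR-B OE libraries and 293, 243, 289 and 477 CPM in the PGR-A OE libraries. The lowest PGR-B OE library lay well above the highest PGR-A OE library, which was replicate 4. The difference was 3.02-fold (log2 difference 1.59, SE 0.20, edgeR adjusted p = 0.00487), and without PGR-A OE replicate 4 it was 1.84 (edgeR adjusted p = 0.000274) on the log2 scale. The control libraries held 201, 207, 170.1 and 269.7 CPM.

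Npy (chr6:49822710-49829507) encodes neuropeptide Y, a secreted peptide of sympathetic nerves that constricts blood vessels. It stood at 401, 287, 253 and 282 CPM in the PGR-B OE libraries and 70.8, 91.6, 84.8 and 29.9 CPM in the PGR-A OE libraries. All PGR-B OE libraries were higher, and the PGR-A OE values spread around the control range of 52.9 to 86.9 CPM, with replicate 4 the lowest. Npy was 4.41-fold higher in PGR-B OE (log2 difference 2.14, SE 0.29, edgeR adjusted p = 0.0126). It passed in 10 of 12 fits with 1 library left out, and was lost without PGR-A OE replicate 1 or PGR-B OE replicate 1 (adjusted p up to 0.0652 by edgeR). Markers of glia and neurons summed to 290.5, 308, 407 and 302 CPM in PGR-B OE and 307, 332, 316 and 341 CPM in PGR-A OE, so these ranges overlapped. Of these 18 markers only 9 had enough counts to be tested, and the sum follows its most abundant members. It does not measure sympathetic nerves, whose part in the Npy difference was not tested.

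Shisa6, Egfem1 and Dupd1 were near the floor of the measurement in PGR-A OE and in control, and between 0.67 and 2.15 CPM in PGR-B OE. Shisa6 (chr11:66211725-66525964), known in brain as an auxiliary protein of glutamate receptors, was measured at 2.15, 1.95, 1.71 and 1.5 CPM in PGR-B OE against 0.204, 0.120, 0.0642 and 0.235 CPM in PGR-A OE (log2 difference 3.51, SE 0.37, edgeR adjusted p = 0.00204). Its gene model overlaps Gm12296 on the other strand, and the sources used here do not say whether strand was used in counting. Egfem1 (chr3:29082023-29691209), named for its EGF-like and EMI domains, held 1.15, 0.670, 0.741 and 1.84 CPM in PGR-B OE and 0.0583, 0, 0.0963 and 0.176 CPM in PGR-A OE (log2 difference 3.67, SE 0.55, edgeR adjusted p = 0.0261). The summed Egfem1 counts were 143 in PGR-B OE and 11 in PGR-A OE, a ratio of 13.4 with an exact 95% interval of 7.26 to 27.4 that covers counting error only. Dupd1 (chr14:21676537-21714576), a dual-specificity phosphatase known from muscle, held 1.53, 0.894, 0.999 and 0.796 CPM in PGR-B OE and 0.0583, 0.0902, 0.257 and 0.206 CPM in PGR-A OE (log2 difference 2.77, SE 0.42, edgeR adjusted p = 0.0270). Shisa6 passed in every fit with 1 library left out, while Egfem1 and Dupd1 each passed in 6 of 12. Egfem1 was lost without control replicates 1 or 3, PGR-A OE replicates 1 or 3 or PGR-B OE replicates 1 or 4 (edgeR adjusted p up to 0.136). Dupd1 was lost without control replicate 1, PGR-A OE replicates 1 or 2 or PGR-B OE replicates 1, 2 or 3 (edgeR adjusted p up to 0.110).

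L3mbtl4 and Mum1l1, both of which encode proteins with domains found in chromatin proteins, were higher in PGR-B OE in every fit with 1 library left out. L3mbtl4 (chr17:68273797-68780086) encodes a member of the MBT-domain family, whose domains bind methylated lysines of histones. It was measured at 15.6, 15.7, 11.6 and 12.6 CPM in PGR-B OE and 4.25, 4.03, 4.56 and 4.76 CPM in PGR-A OE (log2 difference 1.66, SE 0.17, edgeR adjusted p = 0.00204). Mum1l1 (chrX:139210042-139238335), which encodes a PWWP-domain protein, was measured at 16.9, 8.49, 20.8 and 14 CPM in PGR-B OE and 2.27, 2.07, 1.45 and 3.44 CPM in PGR-A OE (log2 difference 2.7, SE 0.29, edgeR adjusted p = 0.00204). For both genes the PGR-A OE libraries lay beside the controls, at means of 4.40 ± 0.324 and 3.61 ± 0.910 CPM for L3mbtl4 (SD, n = 4) and 2.31 ± 0.832 and 2.31 ± 0.330 CPM for Mum1l1.

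The 2 remaining higher genes, Aldh1a1 and Aldh1a7, are neighbours 49488 bases apart on chromosome 19 (chr19:20492715-20643465 and chr19:20692953-20727562). Aldh1a1 encodes a retinaldehyde dehydrogenase, which makes retinoic acid, and Aldh1a7 is a rodent paralog of it. Aldh1a7 was measured at 5.25, 4.85, 5.45 and 3.34 CPM in PGR-B OE and 0.553, 0.451, 0.739 and 0.764 CPM in PGR-A OE (log2 difference 2.91, SE 0.32, edgeR adjusted p = 0.00204). Its control libraries, at 3.51, 1.49, 1.64 and 3.22 CPM, all lay above PGR-A OE. The highest of them lay above the lowest PGR-B OE library, so control overlapped PGR-B OE. Aldh1a1 was measured at 27.9, 35.0, 29.2 and 28.6 CPM in PGR-B OE and 19.9, 19.4, 19.6 and 19.6 CPM in PGR-A OE (log2 difference 0.62, SE 0.10, edgeR adjusted p = 0.0353). The 4 PGR-A OE values of Aldh1a1 were nearly the same and all 4 PGR-B OE values lay above them, but the call held in only 2 of 12 fits with 1 library left out and was lost without control replicates 1 or 3, PGR-A OE replicates 1, 2, 3 or 4 or PGR-B OE replicates 1, 2, 3 or 4 (edgeR adjusted p up to 0.136). The transcripts of Aldh1a1 and Aldh1a7 are 89.1% identical over the whole of the Aldh1a7 transcript, so the authors' counting could have split reads between them. Aldh1a1 also overlaps C730002L08Rik on the other strand.

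The 3 largest log2 differences among the 18 genes were in a single gene cluster on chromosome 12. Serpina1a (chr12:103853589-103863562), Serpina1b (chr12:103728156-103830373) and Serpina1c (chr12:103894926-103904887) encode forms of alpha-1-antitrypsin, a secreted inhibitor of serine proteases made mainly in liver and yolk sac. They were at 1.34 to 4.58 CPM in the PGR-A OE libraries and at 0 to 0.191 CPM in the PGR-B OE libraries. The same cluster holds Serpina1e, which was far more abundant in every library. The windows around the RefSeq starts of these 4 genes (GRCm38.p6, 250 bases before to 50 bases after the start, minus strand, printed 5′ to 3′ in the direction of transcription) are shown so that the upstream sequences of the 3 genes that passed can be set beside that of the most abundant copy, which did not pass. Capitals mark TGTTCT, a half-site of the steroid receptor response element, and, in Serpina1a, the core palindrome ACANNNTGT.
Serpina1a (chr12:103863570-103863869): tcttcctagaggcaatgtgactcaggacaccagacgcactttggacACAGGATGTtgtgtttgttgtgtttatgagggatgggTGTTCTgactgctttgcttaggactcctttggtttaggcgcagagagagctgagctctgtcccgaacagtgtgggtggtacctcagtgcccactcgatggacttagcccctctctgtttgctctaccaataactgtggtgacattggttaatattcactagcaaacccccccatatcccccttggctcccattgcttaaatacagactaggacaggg
Serpina1b (chr12:103738140-103738439): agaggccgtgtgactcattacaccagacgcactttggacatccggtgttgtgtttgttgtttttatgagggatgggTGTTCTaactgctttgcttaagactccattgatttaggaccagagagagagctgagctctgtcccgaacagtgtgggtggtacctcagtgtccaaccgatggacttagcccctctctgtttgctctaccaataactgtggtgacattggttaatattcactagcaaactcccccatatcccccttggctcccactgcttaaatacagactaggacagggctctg
Serpina1c (chr12:103904901-103905200): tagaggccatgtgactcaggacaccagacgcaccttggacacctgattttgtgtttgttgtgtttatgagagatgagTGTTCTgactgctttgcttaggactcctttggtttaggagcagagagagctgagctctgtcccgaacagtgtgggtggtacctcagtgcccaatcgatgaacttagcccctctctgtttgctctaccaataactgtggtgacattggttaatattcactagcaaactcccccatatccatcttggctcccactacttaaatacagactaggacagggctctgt
Serpina1e (chr12:103956848-103957147): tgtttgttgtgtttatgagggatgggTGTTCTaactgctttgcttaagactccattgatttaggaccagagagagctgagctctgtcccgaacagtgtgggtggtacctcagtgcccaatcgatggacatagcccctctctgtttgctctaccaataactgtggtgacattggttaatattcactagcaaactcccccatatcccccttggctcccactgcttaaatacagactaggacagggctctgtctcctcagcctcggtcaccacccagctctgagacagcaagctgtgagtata
Each of the 4 windows holds 1 half-site, which begins 167, 174, 173 and 224 bases before the start in Serpina1a, Serpina1b, Serpina1c and Serpina1e. In the pairwise alignments the Serpina1e window was offset by 57, 50 and 51 bases against those of Serpina1a, Serpina1b and Serpina1c. The half-site therefore lies at the same aligned place in all 4, and the larger distance in Serpina1e comes from its annotated start. The Serpina1a and Serpina1c windows are 94.9% identical over 294 aligned columns, and those of Serpina1b and Serpina1e 97.6% over 250 columns. On either strand, TGTTCT is present in 19.0% of 32817 RefSeq promoter windows of this length, ACANNNTGT in 6.85%, and the full element GNACANNNTGTNC in 0.475%; a full element contains the core palindrome. Among the 18 called genes, 16 matched a window by symbol (18 windows in all): 5 genes held the half-site, 3 held the core palindrome and 0 held the full element. Of those 5 genes, 3 were Serpina1a, Serpina1b and Serpina1c, whose windows are 92.0 to 94.9% identical, so these matches are not independent. The counts are also of genes, some with 2 windows, while the percentages are of windows. Ptn holds 1 half-site, on the minus strand of its window, 171 bases before its start. A match describes letters in a window and is neither a bound site nor a cause.

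In the PGR-A OE libraries Serpina1a was measured at 1.34, 1.80, 1.93 and 2.32 CPM, against 0.118, 0.191, 0.0644 and 0 CPM in PGR-B OE (log2 difference -4.25, SE 0.47, edgeR adjusted p = 0.00204). Serpina1b was at 2.97, 1.47, 1.77 and 3.11 CPM in PGR-A OE and 0, 0.128, 0 and 0.0918 CPM in PGR-B OE (log2 difference -5.33, SE 0.66, edgeR adjusted p = 0.00487). Serpina1c was at 2.24, 1.71, 3.34 and 4.58 CPM in PGR-A OE and 0.0295, 0.0319, 0 and 0 CPM in PGR-B OE (log2 difference -7.26, SE 0.61, edgeR adjusted p = 0.00204). For all 3 genes every PGR-A OE library was far above every PGR-B OE library, and the control libraries, at 0 to 0.126 CPM, lay with PGR-B OE. As summed counts, Serpina1a had 245 in PGR-A OE and 12 in PGR-B OE, a ratio of 19.8 (exact 95% interval 11.1 to 38.9). For Serpina1b they were 312 and 7, a ratio of 43.3 (20.8 to 108.6), and for Serpina1c 394 and 2, a ratio of 191 (52.6 to 1585). The intervals cover counting error only.

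Serpina1e (chr12:103946931-103958975) was at 532, 549, 704 and 383 CPM in PGR-A OE, 882, 1162, 1270.3 and 1162 CPM in PGR-B OE and 1193, 1451, 1371 and 824 CPM in control. The PGR-A OE values lay below all PGR-B OE values, but the difference of 1.05 (SE 0.20, edgeR adjusted p = 0.115) did not pass between the isoforms. Per kilobase of the deposited gene length, the PGR-A OE level of Serpina1e was 395 CPM, against 2.09 CPM for Serpina1c. Transcripts of the cluster are 96.1 to 98.6% identical, and the Serpina1b model overlaps Serpina1d on the same strand, so the share of reads given to each copy is uncertain. The summed level of Serpina1a to Serpina1e was 393.7 to 711.7 CPM in PGR-A OE and 882.2 to 1270.5 CPM in PGR-B OE, nearly all of it Serpina1e. Serpina1d, at 35 summed counts in PGR-A OE and 15 in PGR-B OE, was too low to be tested. The 21 yolk sac and fetal liver markers included these genes. Without the Serpina1 genes, the other 16 summed to 138 to 176 CPM in PGR-A OE and 132 to 180.4 CPM in PGR-B OE, ranges that overlapped. Most of that sum was Trf, transferrin, at 85.8 to 119 CPM in PGR-A OE and 84.5 to 131 CPM in PGR-B OE. Of the defining members, Alb (albumin) was at 8.31 to 23.7 CPM in PGR-A OE and 8.64 to 14.1 CPM in PGR-B OE, and Afp (alpha-fetoprotein) at 0.193 to 1.53 and 0.226 to 0.531 CPM, with overlap. Ttr, transthyretin, lay on the same side as Serpina1a, Serpina1b and Serpina1c, at 0.161 to 0.691 CPM in PGR-A OE (53 summed counts) and 0 to 0.0590 CPM in PGR-B OE (2 summed counts), without overlap. Its control range was 0 to 0.541 CPM, and it was too low to be tested, as was Ahsg, with 10 summed counts in PGR-A OE and 2 in PGR-B OE. The part of yolk sac or liver transcripts in the Serpina1 difference was not tested.

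Among the other genes lower in PGR-B OE, only Aldh1b1 passed in every fit with 1 library left out. Aldh1b1 (chr4:45799022-45804604), a mitochondrial aldehyde dehydrogenase, was measured at 78.6, 61.8, 61.1 and 81.8 CPM in PGR-A OE, 33.3, 37.9, 32.6 and 36.6 CPM in PGR-B OE and 27.0, 32.3, 32.1 and 32.5 CPM in control. The PGR-A OE libraries stood alone at about 2-fold the level of the others (log2 difference -1.01, SE 0.11, edgeR adjusted p = 0.00204). In all, 3 aldehyde dehydrogenase genes passed, of which Aldh1a1 and Aldh1a7 were higher and Aldh1b1 lower in PGR-B OE.

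Nrp2 (chr1:62703285-62818695), a co-receptor for class 3 semaphorins and for VEGF, was measured at 101, 91.3, 94.3 and 115 CPM in PGR-A OE and 50.8, 57.0, 60.5 and 75.2 CPM in PGR-B OE (log2 difference -0.72, SE 0.12, edgeR adjusted p = 0.0429). Adarb1 (chr10:77290726-77418270), an enzyme that edits adenosine to inosine in RNA, was measured at 36.3, 34.4, 33.5 and 39.9 CPM in PGR-A OE and 22.4, 20.9, 28.6 and 23.1 CPM in PGR-B OE (log2 difference -0.60, SE 0.10, edgeR adjusted p = 0.0353). Nipal4 (chr11:46148155-46166508), a membrane protein of the NIPA-like family, was measured at 28.4, 23.2, 34.7 and 20.4 CPM in PGR-A OE and 9.47, 15.6, 11.5 and 13.8 CPM in PGR-B OE (log2 difference -1.08, SE 0.17, edgeR adjusted p = 0.0353). In none of the 3 genes did the isoform groups overlap, but the calls were lost in most fits with 1 library left out. Nrp2 passed only without PGR-B OE replicate 4, Adarb1 only without PGR-B OE replicate 3, and Nipal4 only without PGR-A OE replicate 4 or PGR-B OE replicate 2. Leaving out any other library gave edgeR adjusted p-values of up to 0.141 for Nrp2, 0.136 for Adarb1 and 0.136 for Nipal4.

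Pgbd5 (chr8:124369049-124439658), a gene derived from a piggyBac transposase, was at 5.65, 4.54, 5.43 and 5.55 CPM in PGR-A OE and 2.09, 2.46, 1.77 and 2.75 CPM in PGR-B OE (log2 difference -1.22, SE 0.19, edgeR adjusted p = 0.0324). It passed in 3 of 12 fits with 1 library left out, namely those without control replicate 4, PGR-A OE replicate 4 or PGR-B OE replicate 4 (edgeR adjusted p up to 0.136 in the others). Slc1a2 (chr2:102658659-102790784), a glutamate transporter, was at 0.553, 0.722, 1.06 and 0.764 CPM in PGR-A OE and 0.177, 0.0638, 0.0322 and 0.0918 CPM in PGR-B OE (log2 difference -3.01, SE 0.44, edgeR adjusted p = 0.0210). Its summed counts were 102 and 12, a ratio of 8.26 (exact 95% interval 4.53 to 16.5), and its model overlaps Gm13872 on the other strand. It was lost without PGR-A OE replicates 2 or 3 or PGR-B OE replicates 2, 3 or 4 (edgeR adjusted p up to 0.0780).

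Most genes higher in PGR-B OE stood apart from control in PGR-B OE, and most genes lower in PGR-B OE stood apart from control in PGR-A OE. The contrasts of each isoform with control share libraries with the contrast between isoforms, so they are given side by side as a description. Of the 9 genes higher in PGR-B OE, 8 passed against control in PGR-B OE alone (48 of all genes tested passed in that contrast, 0.308%). The ninth, Aldh1a7, passed against control in PGR-A OE alone, where it fell by 1.97 on the log2 scale (102 of all genes tested passed in that contrast, 0.655%). Of the 9 genes lower in PGR-B OE, Serpina1a, Serpina1b, Serpina1c, Aldh1b1, Adarb1 and Pgbd5 passed against control in PGR-A OE alone, and Nipal4, Nrp2 and Slc1a2 in neither. None of the 18 passed against control in both groups. For Ptn the difference from control was 2.21 (SE 0.20, edgeR adjusted p = 0.000497) in PGR-B OE and 0.62 (SE 0.19, edgeR adjusted p = 0.165) in PGR-A OE. For Aldh1b1 it was 0.18 (SE 0.11, edgeR adjusted p = 0.653) in PGR-B OE and 1.19 (SE 0.11, edgeR adjusted p = 0.000448) in PGR-A OE. The fitted isoform levels lay on opposite sides of control for 9 of the 18 genes and both above control for the other 9. Of all 15561 genes tested, 4416 had the isoforms on opposite sides, 5488 both above and 5657 both below. Genes chosen by a difference between the isoforms are a closer comparison. Of the 1251 with an unadjusted edgeR p under 0.05 between the isoforms, 750 had them on opposite sides, 301 both above and 200 both below. Aldh1a7 lay at -1.97 from control in PGR-A OE and 0.93 in PGR-B OE, and Slc1a2 at 0.76 and -2.25. Of these 4 values only that of Aldh1a7 in PGR-A OE passed.

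**Figure D2:**
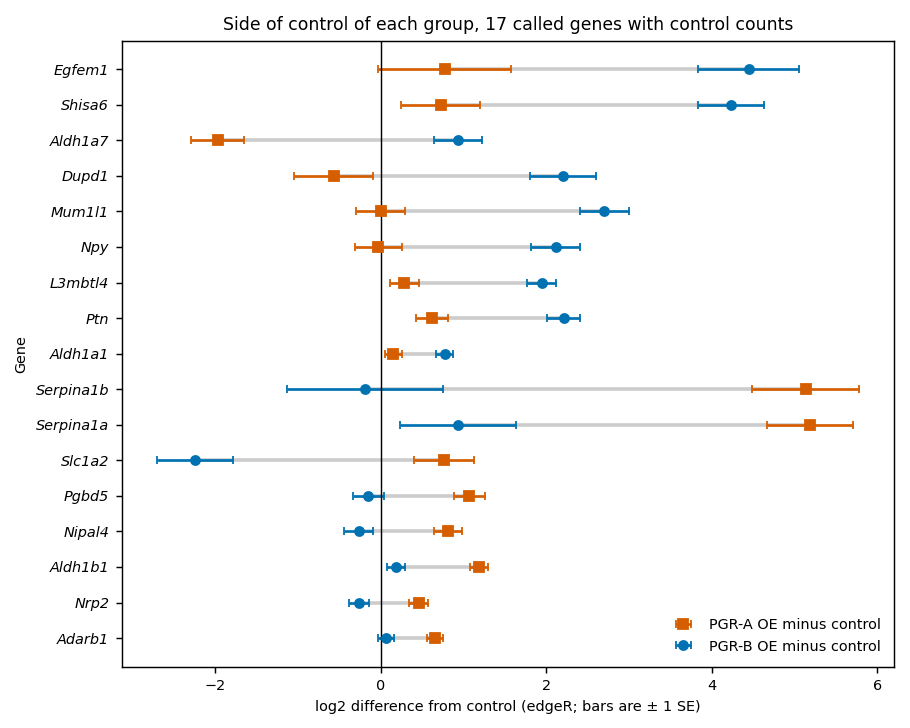
Log2 difference from control of PGR-A OE (squares) and PGR-B OE (circles) for the 17 called genes with counts in control, with bars of 1 SE from the edgeR fit; Serpina1c, with 0 counts in control, is left out. For Ptn, PGR-B OE lies at 2.21 and PGR-A OE at 0.62, while for Aldh1b1 PGR-A OE lies at 1.19 and PGR-B OE at 0.18.

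The genes of next lowest p among those with a mean of at least 1 CPM and no overlap between the isoform groups, 4 higher and 3 lower in PGR-B OE, came close to the threshold without passing and are given as values. Calb2, the calcium-binding protein calretinin, was at 9.29, 4.40, 4.48 and 4.07 CPM in PGR-B OE and 2.04, 1.17, 0.899 and 0.587 CPM in PGR-A OE (log2 difference 2.24, SE 0.40, edgeR adjusted p = 0.0706). Cybrd1, a ferric reductase, was at 21.1, 30.3, 47.9 and 24.5 CPM in PGR-B OE and 10.5, 14.9, 11.6 and 13.1 CPM in PGR-A OE (log2 difference 1.31, SE 0.23, edgeR adjusted p = 0.0724). Fkbp5, which acts with the chaperone Hsp90 on steroid receptors and is induced by progesterone, was at 125, 119, 168 and 119 CPM in PGR-B OE and 78.4, 88.2, 72.1 and 88.5 CPM in PGR-A OE (log2 difference 0.70, SE 0.13, edgeR adjusted p = 0.0857). For Fkbp5 the control range was 58.0 to 80.3 CPM, with PGR-A OE overlapping it and PGR-B OE above it. Pebp1, an inhibitor of Raf kinase, had a mean of 117 ± 8.15 CPM (SD, n = 4) in PGR-B OE and 83.8 ± 5.93 CPM in PGR-A OE (log2 difference 0.49, SE 0.09, edgeR adjusted p = 0.0941). Lower in PGR-B OE were Slc24a3, a potassium-dependent sodium-calcium exchanger (log2 difference -0.70, SE 0.12, edgeR adjusted p = 0.0597), Sync, an intermediate filament protein of muscle (log2 difference -0.58, SE 0.10, edgeR adjusted p = 0.0693), and Cacna1h, the pore of a T-type calcium channel (log2 difference -0.55, SE 0.10, edgeR adjusted p = 0.0693). Cacna1h was at 56.0, 52.2, 52.7 and 58.0 CPM in PGR-A OE and 41.7, 30.7, 35.7 and 41.9 CPM in PGR-B OE, and the control range of 44.4 to 51.2 CPM lay between them. Each of these 3 lower genes overlaps a model on the other strand. DESeq2 called all 7, with adjusted p-values between 2.99e-05 for Calb2 and 0.000376 for Pebp1. Limma voom called Calb2 and Slc24a3, and edgeR called Slc24a3 without the low-count filter and Calb2 with the replicate block.

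For the pathways, counts of members are read against all genes tested, of which 1251 (8.04%) had an unadjusted edgeR p under 0.05, 510 of them higher (3.28%) and 741 lower (4.76%) in PGR-B OE, with a median log2 difference of 0.00. By direction alone, 7966 of all genes tested were higher and 7595 lower in PGR-B OE. Counts of members by direction, here and in the cell type marker lists, are read against these. Members of a list can move together within a library, so such counts are not counts of independent genes. The 25 lists were chosen with earlier results of these data known. Of their members only 4 passed: Ptn and Npy among the secreted growth factors and Aldh1a7 and Aldh1a1 among the retinoid genes.

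Phospholipase C and Gq signalling, the pathway of the series title, had 0 of 53 tested members called by edgeR, DESeq2 or limma voom. At an unadjusted edgeR p under 0.05, 5 members were higher and 8 lower in PGR-B OE, and the median log2 difference was -0.03. Plcl2, a phospholipase C relative without catalytic activity, was at 48.6, 47.3, 47.9 and 52.9 CPM in PGR-B OE and 30.9, 28.4, 38.5 and 44.8 CPM in PGR-A OE. The groups did not overlap, and PGR-B OE lay above the control range of 28.4 to 39.8 CPM, but the difference of 0.47 (SE 0.15, edgeR adjusted p = 0.450) did not pass. Without PGR-A OE replicate 4 it was 0.59 (edgeR adjusted p = 0.174). The 3 members with the lowest p besides Plcl2 act on the products of phospholipase C: Inpp5a, which removes a phosphate from inositol trisphosphate (log2 difference -0.28, SE 0.08, edgeR adjusted p = 0.303), Itpkb, which phosphorylates it (log2 difference -0.29, SE 0.09, edgeR adjusted p = 0.416), and Dgkz, which phosphorylates diacylglycerol (log2 difference -0.19, SE 0.06, edgeR adjusted p = 0.477).

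Of the contraction-associated genes, 0 of 28 tested were called by any of the 3 tools, 0 were higher and 5 lower at an unadjusted edgeR p under 0.05, and the median was -0.13 (-0.08 without PGR-A OE replicate 4). Oxtr, the oxytocin receptor, was at 4.84, 4.42, 3.37 and 14.1 CPM in PGR-A OE and 4.57, 6.25, 5.35 and 3.92 CPM in PGR-B OE, so its PGR-A OE mean rested on replicate 4. Its log2 difference was -0.41 (SE 0.38, edgeR adjusted p = 0.828), and 0.25 (edgeR adjusted p = 0.818) without that library, with the opposite sign. Gja1, the main gap junction protein of labouring myometrium, was at 117 to 172 CPM in PGR-A OE and 112 to 147 CPM in PGR-B OE (log2 difference -0.11, SE 0.16, edgeR adjusted p = 0.898). Ptgs2, the inducible prostaglandin synthase, ranged over 3.20 to 13.3 CPM in PGR-A OE and 5.06 to 18.1 CPM in PGR-B OE (log2 difference 0.36, SE 0.41, edgeR adjusted p = 0.866). Without PGR-A OE replicate 4 the differences were 0.03 (edgeR adjusted p = 0.982) for Gja1 and 0.09 (edgeR adjusted p = 0.978) for Ptgs2. Zeb1 and Zeb2, repressors of contraction genes, differed by -0.14 and -0.13, with edgeR adjusted p-values of 0.812 and 0.825, and by -0.00 (edgeR adjusted p = 0.996) and -0.05 (edgeR adjusted p = 0.957) without that library. The 4 members with the lowest p were receptors of contractile agonists and a thin filament protein: Avpr1a (log2 difference -1.03, SE 0.35, edgeR adjusted p = 0.483), Ednra (log2 difference -0.38, SE 0.14, edgeR adjusted p = 0.519), Cald1 (log2 difference -0.41, SE 0.15, edgeR adjusted p = 0.521) and Tbxa2r (log2 difference -0.34, SE 0.15, edgeR adjusted p = 0.619). Of these only Avpr1a, the vasopressin receptor, had groups without overlap, at means of 0.905 and 0.441 CPM in PGR-A OE and PGR-B OE.

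Calcium handling genes had 0 of 49 members called by edgeR, 1 higher and 12 lower at an unadjusted edgeR p under 0.05, and a median of -0.17. DESeq2 called 5 of them, 1 higher and 4 lower, and limma voom 1 higher. The median was 0.00 without PGR-A OE replicate 4, when 24 of the 49 were lower, so the shift of the list rested on that library. Casq2, the calcium store protein calsequestrin, was at 88.5, 71.6, 112 and 77.2 CPM in PGR-A OE and 36.0, 40.1, 49.6 and 48.1 CPM in PGR-B OE, without overlap, and both lay above the control values of 13.6, 19.2, 32.2 and 19.0 CPM. Its isoform difference of -1.01 (SE 0.22, edgeR adjusted p = 0.193) did not pass and was -1.06 (edgeR adjusted p = 0.193) without PGR-A OE replicate 4. Jph2, which ties the calcium store to the surface membrane, was -0.55 (SE 0.12, edgeR adjusted p = 0.195). P2rx2, an ATP-gated channel, was below control in both groups and overlapped between them (log2 difference -0.33, SE 0.15, edgeR adjusted p = 0.621). The potassium channels had 0 of 46 members called by edgeR and limma voom, 1 lower by DESeq2, 0 higher and 6 lower at an unadjusted edgeR p under 0.05, and a median of -0.24 that became -0.02 without PGR-A OE replicate 4. Of these, Kcnt1 differed by -1.57 (SE 0.37, edgeR adjusted p = 0.220) and Kcnh1 by -1.78 (SE 0.58, edgeR adjusted p = 0.451), the latter -0.75 (edgeR adjusted p = 0.613) without that library.

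**Figure D3:**
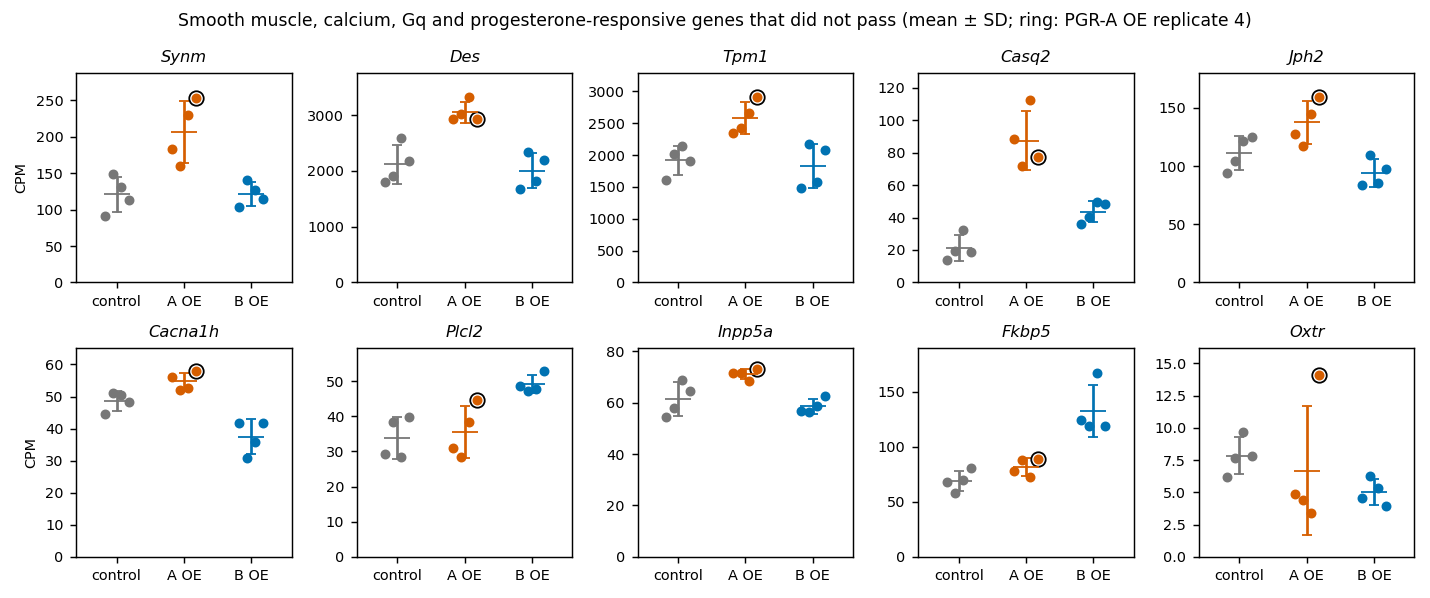
Level in CPM of 10 genes of smooth muscle, calcium handling, Gq signalling and progesterone response that did not pass between the isoforms, 1 point per library, with mean and SD of the 4 libraries; a ring marks PGR-A OE replicate 4. Synm, Des and Tpm1 show PGR-B OE overlapping control and every PGR-A OE library above every PGR-B OE library, and in Oxtr the ringed library, at 14.1 CPM, stands apart from its group.

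Progesterone-responsive genes had 0 of 30 members called by edgeR, 1 by DESeq2 (Fkbp5) and 0 by limma voom. At an unadjusted edgeR p under 0.05, 1 was higher (Fkbp5) and 1 lower (Fst, the activin antagonist follistatin; log2 difference -0.33, SE 0.14, edgeR adjusted p = 0.617). The median was 0.14, and leaving out 1 library moved it between -0.09 and 0.20. Hand2 and Hoxa11, transcription factors of the progesterone-exposed uterus, overlapped between the groups (log2 differences 0.17 and 0.35, edgeR adjusted p = 0.858 and 0.695). Of 35 receptor coregulators and chaperones, 0 were called by edgeR or limma voom and 1 higher by DESeq2, with 4 higher and 1 lower at an unadjusted edgeR p under 0.05. Among the higher was Stat5a, a transcription factor activated by cytokines and prolactin, at 68.0 to 82.0 CPM in PGR-B OE and 46.4 to 69.3 CPM in PGR-A OE (log2 difference 0.38, SE 0.11, edgeR adjusted p = 0.339).

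Secreted growth factors and their receptors had 2 of 64 members called, Ptn and Npy, and 3 higher and 7 lower at an unadjusted edgeR p under 0.05, with a median of -0.10; DESeq2 called 2 in each direction and limma voom 2 higher. The member of lowest p among those lower was Hbegf, a ligand of the EGF receptor, at 18.1, 15.0, 11.9 and 8.61 CPM in PGR-A OE and 4.42, 4.24, 8.38 and 5.45 CPM in PGR-B OE. It did not overlap (log2 difference -1.25, SE 0.25, edgeR adjusted p = 0.134) and passed without PGR-A OE replicate 4, at -1.42 (edgeR adjusted p = 0.0328). Ntrk3, a neurotrophin receptor, differed by -1.73 (SE 0.46, edgeR adjusted p = 0.303), but its PGR-A OE mean of 6.22 CPM rested on replicate 4 at 13.9 CPM, and without that library the difference was -0.96 (edgeR adjusted p = 0.342). Of the retinoid genes, 2 of 28 were called (Aldh1a7 and Aldh1a1), and 3 higher and 3 lower at an unadjusted edgeR p under 0.05, with a median of 0.01. Lrat, which stores retinol as esters, was higher (log2 difference 0.64, SE 0.19, edgeR adjusted p = 0.406), and Dhrs3, which returns retinaldehyde to retinol, lower (log2 difference -0.62, SE 0.25, edgeR adjusted p = 0.556); neither passed.

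Hedgehog and Wnt genes had 0 of 54 members called by edgeR and limma voom and 3 lower by DESeq2, with 1 higher and 5 lower at an unadjusted edgeR p under 0.05. Among those 3 was Hhip, which binds and restrains hedgehog ligands, at 5.71, 3.10, 6.07 and 16.0 CPM in PGR-A OE and 0.796, 1.15, 0.741 and 1.47 CPM in PGR-B OE. The groups did not overlap, and PGR-B OE lay in the control range of 0.536 to 2.81 CPM. The difference of -2.89 (SE 0.57, edgeR adjusted p = 0.127) did not pass, and was -2.25 (edgeR adjusted p = 0.147) without PGR-A OE replicate 4, the highest library. Nkd1, an inhibitor of Wnt signalling (log2 difference -0.53, SE 0.13, edgeR adjusted p = 0.263), and Lgr6, a receptor of R-spondins (log2 difference -1.0, SE 0.28, edgeR adjusted p = 0.328), were the other 2, and Lgr6 was -0.66 (edgeR adjusted p = 0.393) without PGR-A OE replicate 4. Hhatl, a relative of the hedgehog acyltransferase, was well above control in both groups, at means of 17.6 ± 4.05 CPM (SD, n = 4) in PGR-A OE, 13.1 ± 2.6 CPM in PGR-B OE and 0.503 ± 0.186 CPM in control, and differed between isoforms by -0.42 (SE 0.20, edgeR adjusted p = 0.643). Sctr, the secretin receptor, was likewise above control in both, and its isoform difference was 0.42 (SE 0.29, edgeR adjusted p = 0.769).

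Prostaglandin genes had 0 of 18 members called by edgeR and limma voom and 2 by DESeq2, with 2 higher and 1 lower at an unadjusted edgeR p under 0.05. The 2 were Slco2a1, the prostaglandin transporter, at 85.7 to 171 CPM in PGR-B OE and 68.3 to 85 CPM in PGR-A OE (log2 difference 0.80, SE 0.18, edgeR adjusted p = 0.195), and Ptgis, prostacyclin synthase, lower in PGR-B OE (log2 difference -0.51, SE 0.12, edgeR adjusted p = 0.223). Neither overlapped between the isoforms, and Slco2a1 was lowest in control, at 33.6 to 44.8 CPM. Of 51 extracellular matrix genes, 0 passed in edgeR or limma voom and 1 lower in DESeq2, and 1 was higher and 8 lower at an unadjusted edgeR p under 0.05, led by Ltbp1, which anchors latent TGF-beta (log2 difference -0.63, SE 0.14, edgeR adjusted p = 0.172). Of 44 matrix proteases and inhibitors, 0 passed in edgeR or limma voom and 1 higher and 3 lower in DESeq2, and 1 was higher and 7 lower at an unadjusted edgeR p under 0.05. The higher one was Mmp7, matrilysin, at 86.8, 46.8, 80.9 and 30.3 CPM in PGR-B OE and 12.1, 19.5, 12 and 26.1 CPM in PGR-A OE (log2 difference 1.81, SE 0.45, edgeR adjusted p = 0.257), and the lower ones included Adamts3 (log2 difference -0.53, SE 0.10, edgeR adjusted p = 0.0941) and Adamts19 (log2 difference -0.74, SE 0.15, edgeR adjusted p = 0.150). Of 53 cyclic nucleotide genes, 0 passed in edgeR or limma voom and 1 lower in DESeq2, and 1 was higher and 5 lower at an unadjusted edgeR p under 0.05, led by the adenylyl cyclase Adcy5 (log2 difference -0.55, SE 0.12, edgeR adjusted p = 0.186).

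The interferon response list had the lowest median of the pathway lists, at -0.33 over 32 members. Of these 30 were lower in PGR-B OE, 9 with an unadjusted edgeR p under 0.05; 0 passed in edgeR, 1 in DESeq2 and 0 in limma voom. The summed levels overlapped, at 1182 to 1716 CPM in PGR-A OE and 1085 to 1422 CPM in PGR-B OE, where replicate 4 was the highest. Leaving out 1 library moved the median between -0.46, without PGR-B OE replicate 4 (19 lower at an unadjusted edgeR p under 0.05), and -0.24, without PGR-A OE replicate 3 (6 lower). Without PGR-A OE replicate 4 it was -0.42, with 18 lower. Ifi44 was at 40.4, 28.9, 45.4 and 25.4 CPM in PGR-A OE and 16.4, 21.8, 14.4 and 21.9 CPM in PGR-B OE, without overlap (log2 difference -0.91, SE 0.20, edgeR adjusted p = 0.193). Its neighbour Ifi44l was at or near 0 in 8 of the 12 libraries: it was at 14.5, 0, 16.5 and 11.9 CPM in PGR-A OE, 0, 0, 0.0644 and 0 CPM in PGR-B OE and 9.28, 0, 0.0316 and 0 CPM in control, and did not pass (edgeR adjusted p = 0.338). The antiviral enzyme genes Oasl2 (log2 difference -0.53, SE 0.16, edgeR adjusted p = 0.431) and Oas2 (log2 difference -0.37, SE 0.12, edgeR adjusted p = 0.448) lay lower by less, without passing. In the other direction, the unfolded protein response had 26 of 27 members higher, a median of 0.18 and 7 at an unadjusted p under 0.05, of which 2 were left without PGR-A OE replicate 4. Its members of lowest p were chaperone genes such as Dnajc3 (log2 difference 0.30, SE 0.10, edgeR adjusted p = 0.476) and Creld2 (log2 difference 0.44, SE 0.16, edgeR adjusted p = 0.540), and 0 were called by any of the 3 tools. Of 44 cell cycle genes, 42 were lower with a median of -0.21, but 1 had an unadjusted p under 0.05 and 0 were called by any tool.

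**Figure D4:**
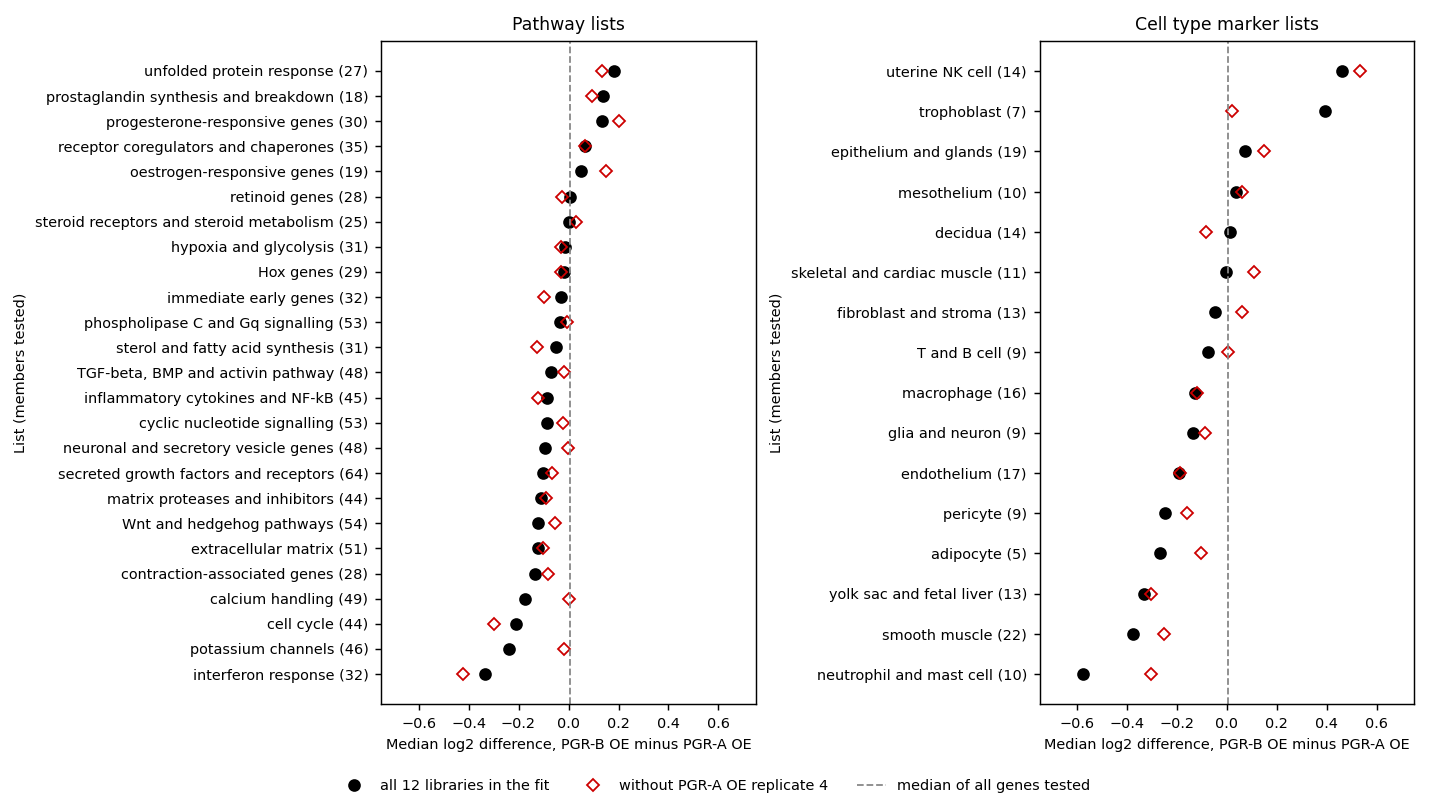
Median log2 difference (PGR-B OE minus PGR-A OE) of the tested members of each pathway list and of each cell type marker list with at least 5 tested members, with all 12 libraries in the fit (filled) and without PGR-A OE replicate 4 (open); the dashed line is the median of all genes tested. Calcium handling and potassium channels move from -0.17 and -0.24 to 0.00 and -0.02 without that library, while smooth muscle stays lower at -0.25 and the interferon response at -0.42.

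Smooth muscle markers, which define the tissue in which Myh11Cre acts, were lower in PGR-B OE in 22 of 22 members, 14 of them at an unadjusted edgeR p under 0.05, with a median of -0.38. None passed in edgeR or limma voom, and 3 were lower in DESeq2. Without PGR-A OE replicate 4, 21 of 22 were lower, 8 at an unadjusted p under 0.05, and the median was -0.25. Synm, an intermediate filament protein, was at 183, 159.5, 230.1 and 253 CPM in PGR-A OE and 103, 141, 127 and 114 CPM in PGR-B OE, without overlap (log2 difference -0.77, SE 0.17, edgeR adjusted p = 0.188). Des, the muscle filament protein desmin, was at 2924, 3026, 3328 and 2933 CPM in PGR-A OE and 1681, 2331, 1815 and 2194 CPM in PGR-B OE, without overlap (log2 difference -0.61, SE 0.14, edgeR adjusted p = 0.195). In both genes PGR-B OE overlapped control, which was at 91.7 to 148 CPM for Synm and 1797 to 2592 CPM for Des. The summed level of the 22 markers was 25309.9, 26218, 29513 and 35457 CPM in PGR-A OE, 18784, 24671, 19623 and 24292 CPM in PGR-B OE and 19362, 23192, 24973 and 21833 CPM in control. Every PGR-A OE library was above every PGR-B OE library. With all 12 libraries in the fit, the smooth muscle sum was thus higher where calcium handling, potassium channel and contraction genes had higher medians. The shift of the calcium handling and potassium channel lists rested on PGR-A OE replicate 4, as given above. The smooth muscle median stayed lower in PGR-B OE, at -0.25, without that library. The part of smooth muscle in those lists was not tested.

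Of the markers of other cell types, none outside the Serpina1 genes passed in edgeR. All 17 endothelial markers were lower in PGR-B OE (16 of 17 with size-factor scaling), with a median of -0.19, 5 at an unadjusted edgeR p under 0.05 and 0 called by any of the 3 tools, and their summed levels overlapped (1223 to 1396 CPM in PGR-A OE, 1066 to 1227 CPM in PGR-B OE). Flt4, a receptor of lymphatic endothelium, had the lowest p among them (log2 difference -0.40, SE 0.10, edgeR adjusted p = 0.268). Uterine natural killer cell markers were higher in 13 of 14 members with a median of 0.46, but 2 had an unadjusted edgeR p under 0.05, 0 were called by any of the 3 tools, and leaving out 1 library moved the median between 0.02 and 0.70. PGR-A OE replicate 4 held 2655 CPM of these markers against 7976 to 8978 CPM in the other PGR-A OE libraries. The mean log2(CPM + 1) of the tested members was 2.17 in that library, within the 2.01 to 2.34 of the others. Its low sum thus rested on few abundant members and was not shared by the list. Klra4 and Klra8 had no count in any library. Neutrophil and mast cell markers were lower in 8 of 10 members, with a median of -0.58 that was -0.30 without PGR-A OE replicate 4, and 0 were called by any of the 3 tools (2 lower at an unadjusted edgeR p under 0.05). Summed levels of stromal, epithelial, decidual, trophoblast and macrophage markers overlapped between the isoforms. The decidual list includes Des, also a smooth muscle marker, which makes up a large part of the decidual sum. Of the 32 trophoblast markers, 7 could be tested, 8 had no count in any library (Psg18, Psg21, Psg23, Gcm1, Synb, Ctsq, Ctsm and Cdx2), and the sum was 4.82 to 33.2 CPM in PGR-A OE and 10.0 to 45.5 CPM in PGR-B OE.

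**Figure D5:**
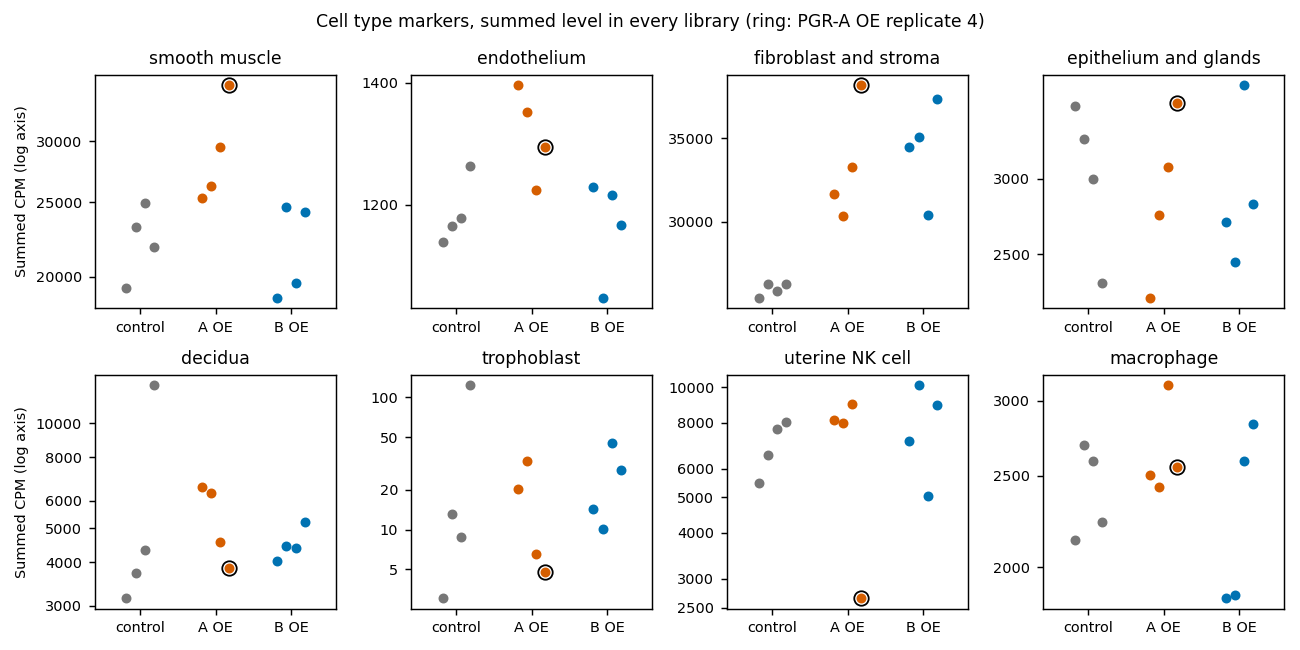
Summed CPM of 8 cell type marker lists in each library, on a log axis, with 1 point per library and a ring around PGR-A OE replicate 4. The smooth muscle sum is 25310 CPM or more in each PGR-A OE library and 24671 CPM or less in each PGR-B OE library. The ringed library is the lowest in the uterine natural killer cell panel, where few abundant members carry the sum.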

How the data were processed

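Total RNA of uterine tissue was made into libraries with an Illumina TruSeq kit and sequenced as 75-base read pairs, per the labels' protocols. The authors deposited 1 table of raw read counts per gene for all 12 libraries; the submitters' processing notes name, with builds mm10 and GRCm38, DESeq2, featureCounts, Bowtie2 2.2.5, Subread 1.6.4 and STAR 2.7.0f, while neither the role of each nor the annotation, strand setting or treatment of multi-mapping reads is given in the sources used here. Library totals were 31872534 to 33078483 counts, and the fit took the spread from all 12 libraries (9 residual degrees of freedom).

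From these counts, genes were filtered by edgeR 4.0.16 (filterByExpr on the 3 groups, 15561 of 24964 genes; 4393 had no count), scaled by TMM and fitted with a robust quasi-likelihood model of all 12 libraries (R 4.3.3); p-values were adjusted by Benjamini-Hochberg over all genes tested, threshold 0.05. SE is the absolute log2 difference divided by the square root of F. DESeq2 1.42.0, limma 3.58.1 and other settings were alternatives, and the fit was tested on simulated data. Positions came from GENCODE M21 (GRCm38; 24431 symbols matched), overlaps from bedtools 2.31.1, transcript identity from blastn 2.17.0 and promoters from RefSeq. Named genes were a preset list of 17 (not all are reported here), the genes past the threshold, those of next lowest p (mean of at least 1 CPM, no overlap) until 10 stood in a direction, and up to 4 of lowest p per list. Members and lists were chosen with earlier results of these data known.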

Additional observations from a re-analysis of the deposited data

Results flagged for a closer look

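In 13 of 206 groups of 4 libraries examined (6.31%), 1 library stood apart from the other 3 by Dixon's gap test at the 95% level; chance alone flags about 5% of groups. PGR-A OE replicate 4 accounted for 8 of them. In that library Oxtr was at 14.1 CPM (3.37 to 4.84 in the other 3), P2rx2 at 23.9 CPM (18.2 to 19.0), Avpr1a at 0.705 CPM (0.962 to 0.990), Ntrk3 at 13.9 CPM (2.62 to 4.24) and Kcnh1 at 2.5 CPM (0.450 to 0.511). Its summed markers of uterine natural killer cells were 2655 CPM (7976 to 8978), those of T and B cells 93.2 CPM (33.8 to 42.9) and those of erythroid cells 34.6 CPM (11.7 to 14.3). The natural killer cell sum was carried by few abundant members, and the mean log2(CPM + 1) of its tested members did not stand apart (2.17, against 2.01 to 2.34). The haemoglobin genes Hba-a1, Hba-a2, Hbb-bs, Hbb-bt and Hbb-bh1 were at 0 in all 12 libraries.

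The other 5 were in PGR-B OE. Replicate 1 held Calb2 at 9.29 CPM (4.07 to 4.48 in the other 3) and Tbxa2r at 5.34 CPM (3.42 to 3.61). Replicate 3 held Fkbp5 at 167.5 CPM (118.9 to 124.5), summed glia and neuron markers at 406.7 CPM (290.5 to 308.1), and Ifi44l at 0.0644 CPM where the other 3 were at 0, a difference of 2 counts.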

How the results depend on the processing

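TMM, size-factor (RLE) and upper-quartile scaling and the non-robust fit each gave the same 18 calls, and testing without the low-count filter gave 19 (9 higher, 10 lower), 18 of them shared. DESeq2 gave 44 higher and 82 lower, with 28 pathway list members called (4 in the edgeR fit) and 77 of its calls on opposite sides of control. Requiring a mean of 1 CPM left 13916 genes tested, 5 of them higher and 2 lower. Fitting the 8 isoform libraries alone gave 6 higher and 4 lower (9 of the 18 shared) and 2 list members; fewer libraries set the spread. Leaving out 1 library in turn gave 5 to 17 higher and 4 to 14 lower genes, with the most, 31, without PGR-A OE replicate 4 (15 of the 18 shared); 2 to 6 list members were called, and 5 to 6 genes lay on opposite sides when a control library was left out. The cause of these changes was not tested. The difference in Pgr ran from 0.09 to 0.29, with exact permutation p-values of 0.0857 to 0.629, and was 0.13 with plain library totals. Sign changes occurred only in fits without 1 library and in genes that did not pass: Oxtr, -0.63 to 0.25; Gja1, -0.19 to 0.0255; Ptgs2, -0.0298 to 0.68; Hand2, -0.10 to 0.27. Over the 86 genes examined, 70 library-out values of 9 genes fell short of the threshold and 6 of 5 genes newly passed; in the other settings 22 values of 9 genes fell short and 35 of 31 genes newly passed.

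The labels number replicates 1 to 4 in each group. Deviations of same-numbered libraries of the isoform groups correlated at 0.11, -0.02, 0.25 and -0.09 across genes, and 2 of 4 libraries correlated best with their own number. With so few libraries these values cannot decide whether the numbers pair the samples, and the labels do not say. With the replicate block 7 genes were higher and 4 lower, 10 of the 18 shared. At 2 to 12 summed counts in the lower group, as for Serpina1a, Serpina1b, Serpina1c, Slc1a2 and Egfem1, depth limits the size of a fold change.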

Other observations

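Genes of neuronal and secretory vesicle type were tested in 48 members and 0 passed in edgeR (1 higher and 2 lower at an unadjusted p under 0.05; DESeq2 called 1 in each direction and limma voom 0). Sv2b, a synaptic vesicle protein, was at 36.0, 34.6, 32.1 and 36.2 CPM in PGR-A OE and 42.1, 53.5, 48.4 and 44.4 CPM in PGR-B OE, without overlap (log2 difference 0.44, SE 0.10, edgeR adjusted p = 0.195), while Rab3b, a GTPase of secretory vesicles, was at 0.903, 0.812, 1.12 and 0.852 CPM in PGR-A OE and 0.442, 0.287, 0.0322 and 0.0918 CPM in PGR-B OE, also without overlap (log2 difference -2.08, SE 0.53, edgeR adjusted p = 0.266). Pericyte markers were lower in 7 of 9 members, with a median of -0.25, 3 at an unadjusted edgeR p under 0.05 and 0 called by edgeR; DESeq2 called Cspg4, a proteoglycan of pericytes, at means of 104 ± 3.26 CPM (SD, n = 4) in PGR-A OE and 82.5 ± 4.93 CPM in PGR-B OE (log2 difference -0.33, SE 0.09, edgeR adjusted p = 0.268). Among decidual markers the tryptophan dioxygenase gene Tdo2 was at 25.3, 10.5, 14.8 and 17.1 CPM in PGR-B OE and 8.07, 4.90, 3.28 and 10.2 CPM in PGR-A OE (log2 difference 1.36, SE 0.40, edgeR adjusted p = 0.404), without overlap. The summed decidual markers of the groups overlapped (4037 to 5224 CPM in PGR-B OE and 3858 to 6575 CPM in PGR-A OE), but a large part of that sum was Des.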
